A study of Mus musculus with 12 samples.

Results

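The genes described here are 10 antioxidant genes, chosen by gene symbol as targets of the transcription factor NRF2 and other antioxidant enzymes, with the glutathione transferases left out. All 10 were among the 17536 genes of the deposited table and among the 13489 genes tested. Their levels were read in hearts of outbred ICR mice aged 10 weeks, in 12 RNA-seq libraries that form 4 groups of 3. The label of the first group says only control, and that of the second gives busulfan, an alkylating drug used before bone marrow transplantation, at 20 mg/kg. The others are labelled B+Con-FMT, here control-FMT, and B+AOS10mg/kg-FMT, here AOS-FMT. B is read here as busulfan and FMT as faecal microbiota transplantation, which the labels do not spell out, and the meaning of AOS is not given. No route or time of dosing is given, nor a busulfan dose for either FMT group. They do not say whether libraries with different numbers came from different animals, so each p-value measures the spread between these libraries only.

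NRF2, encoded by Nfe2l2, is held in the cytoplasm and marked for degradation by KEAP1. Oxidants and electrophiles modify KEAP1, and NRF2 then enters the nucleus and binds antioxidant response elements together with small MAF proteins. Its targets make glutathione, recycle thioredoxin and peroxiredoxin, and detoxify quinones and haem. Superoxide dismutases, catalase and glutathione peroxidase remove superoxide and hydrogen peroxide, of which the mitochondria of heart muscle are a main source. Alkylating drugs such as busulfan are conjugated to glutathione, which the glutamate-cysteine ligase encoded by Gclc and Gclm helps to make.

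Levels are in CPM, estimated counts scaled to library size by TMM, and differences are log2 fold changes from edgeR's quasi-likelihood test with their standard errors (SE). The word called is used for genes whose p, adjusted by Benjamini-Hochberg across the 13489 genes, fell under 0.05. Library totals lay between 11333650 and 14335688 estimated counts. The 12 cardiomyocyte markers summed to between 98277 and 171261 CPM per library and none was at 0, as the heart label has it. Atrial muscle markers were uneven: the 9 markers summed to between 2079 and 19445 CPM in control, 302 and 3311 CPM in busulfan, 465 and 4319 CPM in control-FMT, and 1951 and 27378 CPM in AOS-FMT, with none at 0. The liver markers were highest in AOS-FMT, where the 12 in the table summed to between 80.1 and 771 CPM, against 14.4 to 72.5 CPM in the other libraries. In such bulk samples, fewer cells of a type and less RNA per cell cannot be told apart.

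No member was called in any of the 6 comparisons between groups. The shares of all genes called were 0.0593% for busulfan against control, 0% for control-FMT against busulfan and 0.0445% where AOS-FMT was set against busulfan. AOS-FMT against control-FMT had 0.0297%, control-FMT against control 0% and AOS-FMT against control 0.0815%. In the test of any difference among the 4 groups 0 of 10 members were called, beside 0.104% of all genes. DESeq2 and limma-voom also called 0 members in every comparison. At an unadjusted p under 0.05 edgeR gave 6 of the 60 member differences, 3 for Srxn1, 2 for Hmox1 and 1 for Gpx1. By comparison, busulfan against control had 0 of 10 (all genes 11.3%), control-FMT against busulfan 1 (2.65%) and AOS-FMT against busulfan 1 (13.6%). The remaining counts were 1 in AOS-FMT against control-FMT (6.23%), 2 in control-FMT against control (8.2%) and 1 in AOS-FMT against control (8.87%). The smallest adjusted p of the 60 was 0.314.

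Each 95% interval gives a range for a single difference taken alone, from the spread between these libraries. The intervals were not adjusted for their number, so larger differences are not excluded. Of the 60 intervals, 38 lay within 1.5-fold in both directions and 58 within 2-fold. The 2 that reached past 2-fold belonged to Hmox1 against control. For Gclc, Gclm and Txnrd1 all 6 comparisons had intervals within 1.5-fold. The plot of differences shows these intervals by comparison.

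**Figure D1:**
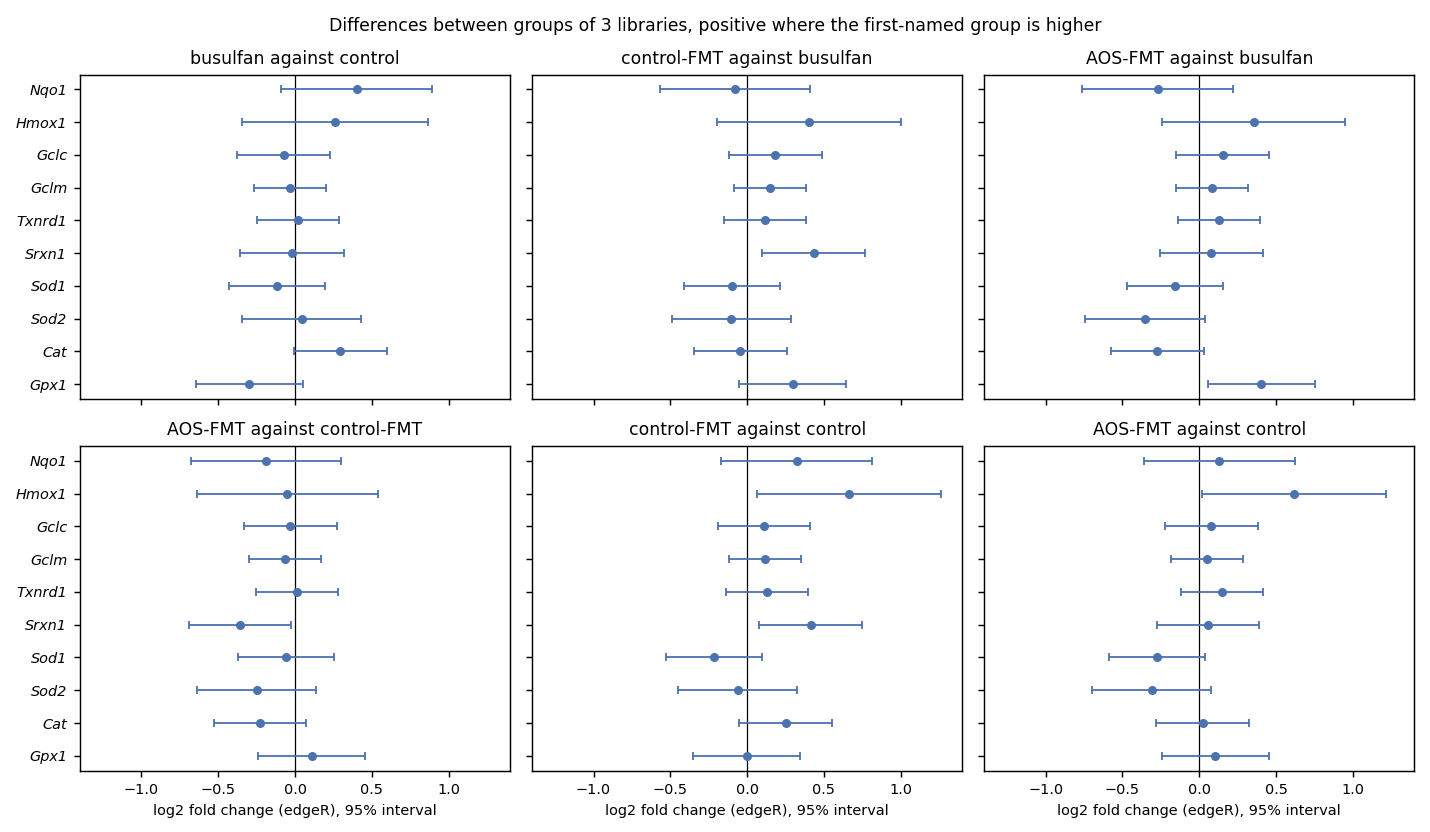
Log2 fold change (x axis) of each of the 10 genes (y axis) in the 6 comparisons, for 3 libraries against 3. The bars are 95% intervals computed from edgeR's F statistics. The intervals that leave out 0 belong to Srxn1, Hmox1 and Gpx1, and none of these genes was called after adjustment.

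The levels per length, in the TPM values the authors deposited, spanned a wide range. Sod1, the cytosolic copper-zinc superoxide dismutase, was the most abundant at 745 ± 55.2 TPM (SD over the 12 libraries). Sod2, the mitochondrial manganese form, followed at 239 ± 32.0 TPM, with a range that did not overlap that of Sod1. Gpx1, the main cytosolic glutathione peroxidase, and Cat, peroxisomal catalase, had 165 ± 30.6 and 159.8 ± 24.7 TPM and could not be ordered, since Gpx1 was above Cat in 6 of 12 libraries. Sod2 lay above Gpx1 in 11 of 12. The NRF2 targets stood lower. Nqo1, a quinone reductase, had 35.9 ± 7.83 TPM and Txnrd1, cytosolic thioredoxin reductase, 19.7 ± 3.12 TPM. Hmox1, the inducible haem oxygenase, had 19.4 ± 6.90 TPM and Gclm, the modifier subunit of glutamate-cysteine ligase, 17.4 ± 2.90 TPM. Txnrd1 exceeded Hmox1 in 8 of 12 libraries and Hmox1 exceeded Gclm in 7 of 12, so neither pair could be ordered. Txnrd1 and Gclm were not set against each other. Srxn1, sulfiredoxin, which reactivates overoxidised peroxiredoxins, had 13.1 ± 2.80 TPM, and Gclc, the catalytic subunit of the ligase, was lowest at 5.74 ± 0.894 TPM and below Srxn1 in 12 of 12 libraries.

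**Figure D2:**
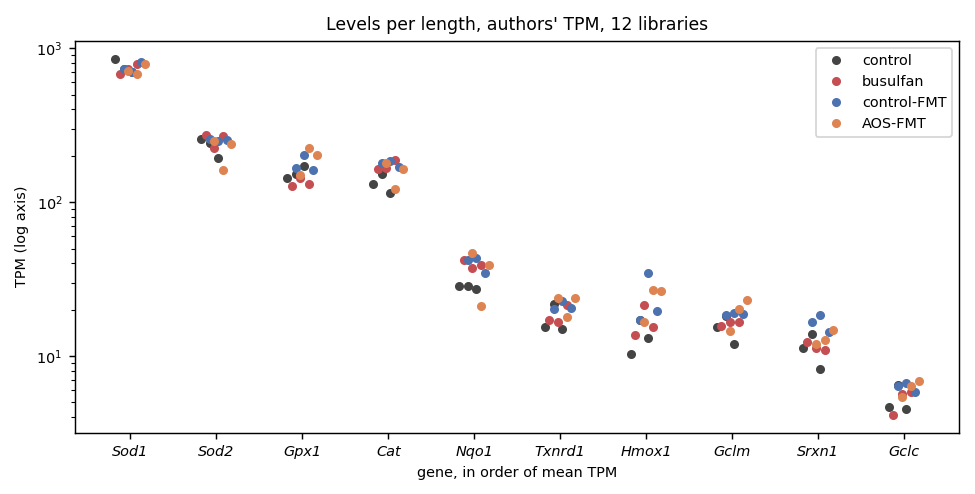
TPM on a log axis for the 10 genes in order of their mean, 1 point per library, coloured by group. Sod1 lies above all others in each of the 12 libraries, and the points of Gpx1 and Cat, and of Txnrd1, Hmox1 and Gclm, intermix.

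Sequence at the start sites was searched for the letters of the antioxidant response element, which NRF2 binds. RefSeq promoters of GRCm38.p6, 250 bases before to 50 bases after a start site, were found for 8 of the 10 members, the missing entries being Hmox1 and Gclc. The core letters of the antioxidant response element, TGACNNNGC on either strand, lay in at least 1 promoter of 4 of these 8 genes. Among genes of the deposited table with a promoter, 16.1% had such a match, and among all genes with a promoter 14.0%. The members were chosen in part as NRF2 targets, so a share above that of all genes is no separate result. No match overlapped the AP-1 letters TGANTCA, which 1 of the 8 genes, Srxn1, held, beside 6.92% of genes of the deposited table and 8.97% of all genes with a promoter. The lack of overlap holds only for the letters searched, which ask for a C after TGA. The Srxn1 promoter also holds tgagtcagc, where AP-1 letters run into GC, and this was not counted as a match. The 4 promoters with a match are printed 5′ to 3′ on the gene's strand because they hold the element's letters close to the start, with the match in capitals; in each it reads TGACNNNGC on the opposite strand.
Srxn1, chr2:152105274-152105573, plus strand: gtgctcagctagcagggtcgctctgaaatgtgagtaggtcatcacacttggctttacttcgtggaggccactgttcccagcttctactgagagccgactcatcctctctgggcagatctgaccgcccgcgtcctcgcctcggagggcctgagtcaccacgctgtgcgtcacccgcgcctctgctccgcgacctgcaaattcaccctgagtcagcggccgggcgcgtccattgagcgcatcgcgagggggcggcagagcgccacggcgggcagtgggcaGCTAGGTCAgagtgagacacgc
Gclm, chr3:122245307-122245606, plus strand: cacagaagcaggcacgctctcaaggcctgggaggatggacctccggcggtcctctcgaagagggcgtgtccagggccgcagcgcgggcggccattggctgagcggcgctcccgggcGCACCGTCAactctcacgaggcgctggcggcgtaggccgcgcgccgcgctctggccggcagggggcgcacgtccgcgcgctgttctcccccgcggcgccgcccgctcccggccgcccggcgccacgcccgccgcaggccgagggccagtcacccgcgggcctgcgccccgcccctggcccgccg
Txnrd1, chr10:82858956-82859255, plus strand: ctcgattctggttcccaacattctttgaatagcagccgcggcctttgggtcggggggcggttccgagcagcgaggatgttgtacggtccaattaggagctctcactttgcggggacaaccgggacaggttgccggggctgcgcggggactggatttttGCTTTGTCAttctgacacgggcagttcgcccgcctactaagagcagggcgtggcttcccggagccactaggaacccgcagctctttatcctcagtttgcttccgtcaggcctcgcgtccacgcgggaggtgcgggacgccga
Sod1, chr16:90220512-90220811, plus strand: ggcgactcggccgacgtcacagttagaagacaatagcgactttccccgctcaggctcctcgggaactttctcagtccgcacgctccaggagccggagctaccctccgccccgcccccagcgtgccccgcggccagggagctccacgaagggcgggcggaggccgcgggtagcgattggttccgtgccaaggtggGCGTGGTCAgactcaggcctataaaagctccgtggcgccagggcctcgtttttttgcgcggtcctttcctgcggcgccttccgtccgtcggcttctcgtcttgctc
Read on its own strand the Srxn1 match is TGACctaGC, and its first capital as printed lies at base 29 after the start site. The first capital of the Gclm match, TGACggtGC, lies 134 bases before the start site, the Txnrd1 match, TGACaaaGC, 92 bases before, and the Sod1 match, TGACcacGC, 56 bases before. Txnrd1 has 3 promoters in the table, of which 1 held a match. A match describes letters and not binding of NRF2. The promoters of Nqo1, Sod2, Cat and Gpx1 held none in this window.

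Nqo1, which reduces quinones to hydroquinones and is a standard readout of NRF2, had 36.1, 26.7 and 32.1 CPM in control, 45.7, 39.9 and 39.8 CPM in busulfan, 41.5, 43.0 and 34.0 CPM in control-FMT, and 45.5, 20.8 and 37.9 CPM in AOS-FMT. Each busulfan library lay above each control library, while AOS-FMT held both the lowest library of all, its replicate 2, and one near the highest. The difference between busulfan and control was 0.40 ± 0.23 (SE), with an interval from -0.09 to 0.89, and was not called (edgeR adjusted p = 0.540). Control-FMT stood at 0.32 ± 0.23 against control and AOS-FMT at -0.27 ± 0.22 against busulfan, and neither was called. Nqo1 (NCBI gene 18104, protein-coding, as are all 10) lies on chromosome 8 at 107388225 to 107403205 in GRCm38.p6.

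The atrial markers tended to be lower where Nqo1 was higher. Sln, Myl4, Myl7 and Bmp10, averaged as log2(CPM + 1), gave a score of atrial muscle. With it as a covariate, Nqo1 stood at 0.04 ± 0.23 for busulfan against control (edgeR adjusted p = 0.980), at -0.06 ± 0.23 for control-FMT against control and at 0.08 ± 0.22 for AOS-FMT against busulfan. Without AOS-FMT replicate 2 the last comparison stood at 0.00. The atrial score lay between 6.12 and 10.3 in control and between 1.35 and 7.30 in busulfan. It lay between 1.72 and 6.59 in control-FMT and between 6.64 and 10.4 in AOS-FMT. The score thus differed with group, and adjusting for it can also take away a group difference. Treatment and atrial content cannot be told apart here, nor wherever this covariate is used. Of the 9 atrial markers all lay below their control level in busulfan and all lay above their busulfan level in AOS-FMT, with 0 called in either.

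Hmox1 had 13.3, 16.5 and 15.5 CPM in control, 15.2, 23.2 and 15.9 CPM in busulfan, 17.3, 35.1 and 19.4 CPM in control-FMT, and 16.4, 27.0 and 25.8 CPM in AOS-FMT. The control-FMT libraries all lay above the controls, the only member for which that held, beside 7.16% of all genes. One library, control-FMT replicate 2, was far above its group. Hmox1 was 0.66 ± 0.28 higher in control-FMT than in control (interval 0.06 to 1.26, unadjusted p = 0.0330, edgeR adjusted p = 0.558) and 0.61 ± 0.27 higher in AOS-FMT than in control (interval 0.02 to 1.21, adjusted p = 0.550). Without control-FMT replicate 2 the first of these stood at 0.28. That library also had 67.8 CPM of Cd68, a lysosomal macrophage marker, against at most 36.3 CPM in the 11 others. Its 14 macrophage markers together had 1207 CPM, where control had 881 to 1202, busulfan 559 to 791, control-FMT 674 to 1207 and AOS-FMT 872 to 1260 CPM, with none at 0. In control-FMT replicate 2 Cd68, Lyz2 (608 CPM) and Fcgr1 (5.15 CPM) were at their highest of the 12 libraries. Cd163 (0.981 CPM), Lyve1 (8.91 CPM), Timd4 (1.31 CPM) and Folr2 (13.3 CPM) were at their lowest there. Of the 14 macrophage markers 3 were higher and 11 lower in control-FMT than in control, with 0 called. A score for each marker list was its mean log2(CPM + 1), the atrial score keeping to its 4 genes, and relations to it are adjusted over the 50 described with the marker scores. Over the 12 libraries Hmox1 had a Pearson r of 0.0319 with the macrophage score (permutation p = 0.922, adjusted p = 0.974) and a rho of 0.0699 (permutation p = 0.834, adjusted p = 0.921), and r was -0.0552 without control replicate 3 and AOS-FMT replicate 2. On values centred on their group means this r was 0.392. In AOS-FMT against control no member had groups apart, where 6.63% of all genes did so higher and 3.8% lower; no member was apart and lower in control-FMT against control (4.71%). Hmox1 (15368) lies on chromosome 8 at 75093618 to 75100593.

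**Figure D3:**
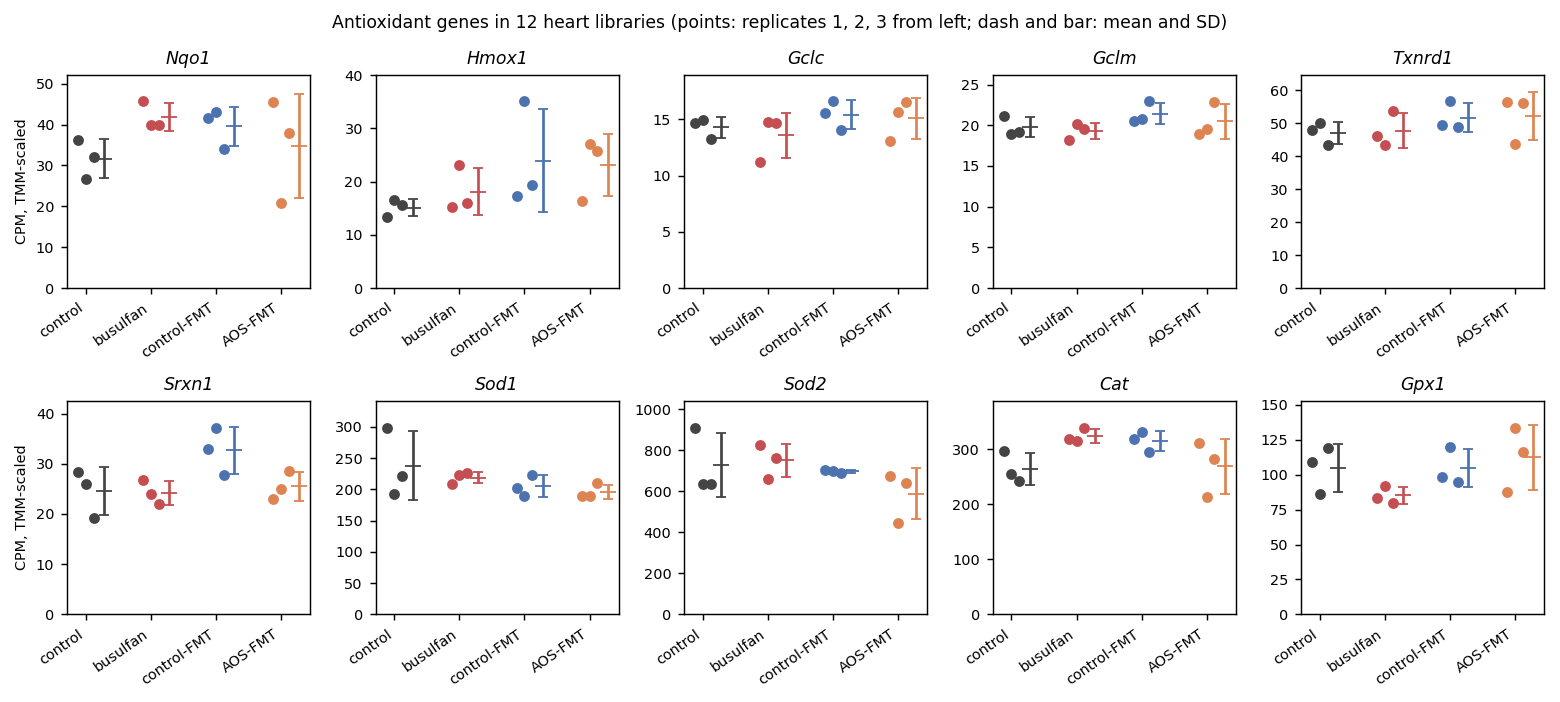
CPM of each of the 10 genes by group, each axis starting at 0. Points are replicates 1, 2 and 3 from left to right, and the dash and bar to their right are the mean and SD of 3 libraries; the control-FMT points of Srxn1 and the busulfan points of Cat sit high, and AOS-FMT replicate 2 is the lowest point for Nqo1, Sod2 and Cat.

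Both subunits of the glutathione synthesis enzyme varied little. Gclm lay between 18.2 and 23.0 CPM in all 12 libraries, with a coefficient of variation of 7.48%, the lowest of the 10 members. Gclc lay between 11.2 and 16.6 CPM, with a coefficient of variation of 10.5%, next to 10.2% for Txnrd1. Busulfan stood at -0.07 ± 0.14 against control for Gclc, with an interval from -0.38 to 0.23, and at -0.03 ± 0.11 for Gclm, with an interval from -0.27 to 0.20. The signs of both turned with the atrial covariate. The means of both genes were highest in control-FMT and lowest in busulfan. Gclm was higher in each control-FMT library than in each busulfan library, by 0.15 ± 0.11 (edgeR adjusted p = 0.999). Gclc (14629) lies on chromosome 9 at 77754535 to 77794489 and Gclm (14630) on chromosome 3 at 122245487 to 122267215, where Gclm spans a lncRNA and a pseudogene of the annotation, for which no values were used.

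Srxn1 had the smallest p of the members in the test of any difference among the 4 groups. It had 28.4, 26.0 and 19.3 CPM in control, 26.7, 23.9 and 22.0 CPM in busulfan, 32.9, 37.2 and 27.9 CPM in control-FMT, and 23.0, 25.0 and 28.6 CPM in AOS-FMT. The control-FMT libraries lay above every busulfan library and overlapped control and AOS-FMT through their lowest library. The edgeR p over the 4 groups was 0.0432 and 0.485 after adjustment, where 10.2% of all genes had an unadjusted p under 0.05. Control-FMT stood 0.43 ± 0.15 above busulfan, or 1.35-fold with an interval from 1.07 to 1.70-fold (unadjusted p = 0.0151, edgeR adjusted p = 0.999), and 0.41 ± 0.15 above control (adjusted p = 0.502). AOS-FMT stood at -0.36 ± 0.15 against control-FMT (interval -0.69 to -0.02, edgeR adjusted p = 0.792) and at 0.08 ± 0.16 against busulfan. The 2 differences between control-FMT and the busulfan and control groups share the control-FMT libraries. With the atrial covariate control-FMT stood 0.42 above busulfan and 0.19 above control, and AOS-FMT stood at -0.12 against control-FMT. Srxn1 (76650) lies on chromosome 2 at 152105524 to 152111376.

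Txnrd1, whose product reduces thioredoxin, ranged from 43.4 to 56.7 CPM. Its means were 47.2 ± 3.35 CPM for control and 47.8 ± 5.34 CPM for busulfan, then 51.7 ± 4.37 CPM for control-FMT and 52.2 ± 7.27 CPM for AOS-FMT (SD, n = 3 each), and the 4 groups overlapped one another. AOS-FMT against control stood at 0.15 ± 0.12, the largest of its 6 differences (edgeR adjusted p = 0.784). Txnrd1 (50493) lies on chromosome 10 at 82833951 to 82897724, and its span overlaps Eid3, which the deposited table also lists, so that reads could be split between them.

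Srxn1 and Hmox1 had the smallest p over the 4 groups, and the genes most like them across the 12 libraries were sought among 10498 genes with a mean of at least 5 CPM. For Srxn1 these were Tdg, a DNA glycosylase, at a Pearson r of 0.88 of log2 CPM, Abcc9, the SUR2 subunit of the ATP-sensitive potassium channel, at 0.84, and Arhgap39 at 0.82. For Hmox1 they were Niban2 at 0.90, Pld3 at 0.88 and the membrane metalloproteinase Mmp14 at 0.88. These are the highest of many values and describe these libraries only.

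Both superoxide dismutases had their lowest mean in AOS-FMT, without a call. Sod1 had 299, 192 and 222 CPM in control and between 189 and 226 CPM in the 9 other libraries, so only control replicate 1 stood apart. AOS-FMT stood at -0.28 ± 0.14 against control (edgeR adjusted p = 0.614), and at -0.08 without control replicate 1. Busulfan stood at -0.12 ± 0.14 against control and at 0.06 without that library. Sod2 had 911, 635 and 637 CPM in control, 826, 662 and 761 CPM in busulfan, 704, 700.0 and 688 CPM in control-FMT, and 677, 445 and 639 CPM in AOS-FMT. Each AOS-FMT library lay below each control-FMT library, which held for 1 of the 10 members and for 7.29% of all genes; 0 members were apart and higher, beside 6.52%. Sod2 stood at -0.35 ± 0.18 in AOS-FMT against busulfan (interval -0.74 to 0.03, edgeR adjusted p = 0.389) and at -0.25 ± 0.18 against control-FMT (adjusted p = 0.815). With the atrial covariate these were -0.11 and 0.00, and without AOS-FMT replicate 2 they were -0.18 and -0.08. Sod1 (20655) lies on chromosome 16 at 90220762 to 90226333 and Sod2 (20656) on chromosome 17 at 13007839 to 13018119.

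Cat, which breaks down hydrogen peroxide, had 298, 255 and 242 CPM in control, 319, 316 and 339.8 CPM in busulfan, 319, 331 and 296 CPM in control-FMT, and 311, 213 and 283 CPM in AOS-FMT. Every busulfan library lay above every control library and above every AOS-FMT library. Groups that did not overlap were thus seen in busulfan against control for 2 of 10 members, Nqo1 and Cat, both higher, beside 7.74% of all genes, and lower for 0 members, beside 6.38%. In AOS-FMT against busulfan they were seen for Cat alone, lower, beside 10.9%, and higher for 0 members, beside 10.3%. Cat was 0.29 ± 0.14 higher in busulfan than in control, or 1.23-fold with an interval from 0.995 to 1.51-fold (unadjusted p = 0.0545, edgeR adjusted p = 0.450). It stood at -0.27 ± 0.14 in AOS-FMT against busulfan (adjusted p = 0.391). With the atrial covariate these were 0.15 ± 0.16 and -0.13 ± 0.16. Cat (12359) lies on chromosome 2 at 103453904 to 103485153.

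Gpx1, which reduces peroxides with glutathione, had 109, 86.1 and 119 CPM in control, 83.6, 91.9 and 80.0 CPM in busulfan, 98.4, 120.1 and 95.1 CPM in control-FMT, and 87.7, 134 and 116 CPM in AOS-FMT. The busulfan group had the lowest mean and its 3 libraries lay below all those of control-FMT. In control-FMT against busulfan the groups were apart for 3 of 10 members, Gclm, Srxn1 and Gpx1, all higher in control-FMT, beside 5.41% of all genes, and 0 were lower, beside 6.58%. Gpx1 stood at -0.30 ± 0.16 in busulfan against control (edgeR adjusted p = 0.517), at 0.30 ± 0.16 in control-FMT against busulfan (adjusted p = 0.999) and at 0.40 ± 0.16 in AOS-FMT against busulfan (interval 0.06 to 0.75, unadjusted p = 0.0264, adjusted p = 0.314). These 3 comparisons share the busulfan libraries. With the atrial covariate they were -0.31, 0.29 and 0.42. In these comparisons the macrophage and erythroid markers mostly lay on the same side as Gpx1. All 12 cardiomyocyte markers lay on the other side, above control in busulfan and below busulfan in both FMT groups, with 0 called. The macrophage markers, whose sums are given with Hmox1, lay below control in busulfan for 14 of 14, above busulfan in control-FMT for 10 of 14 and above busulfan in AOS-FMT for 14 of 14, with 0 called. Of the erythroid markers, all 8 tested lay below control in busulfan, with 0 called, and the 10 in the table summed to between 2536 and 4786 CPM in busulfan, 3210 and 14803 CPM in control, 3626 and 6554 CPM in control-FMT, and 5755 and 8507 CPM in AOS-FMT. Epb42 was at 0 in at least 1 library. Over the 12 libraries Gpx1 had a Pearson r of 0.602 with the macrophage score (permutation p = 0.0393, adjusted p = 0.189) and a rho of 0.566 (permutation p = 0.0595, adjusted p = 0.297), and r was 0.282 without control replicate 3 and AOS-FMT replicate 2. With the cardiomyocyte score r was -0.644 (permutation p = 0.0211, adjusted p = 0.132) and rho -0.469 (permutation p = 0.127, adjusted p = 0.455), and r was -0.297 without AOS-FMT replicates 2 and 3. With the erythroid score r was 0.0147 (permutation p = 0.963, adjusted p = 0.981) and rho -0.119 (permutation p = 0.717, adjusted p = 0.921), and r was -0.246 without control replicate 3 and control-FMT replicate 1. On values centred on their group means r was 0.461 with the macrophage, -0.431 with the cardiomyocyte and -0.189 with the erythroid score. Gpx1 (14775) lies on chromosome 9 at 108339080 to 108340342.

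As a set, the 10 members were centred near the other genes in busulfan against control. Their medians lay farther from those of all genes in the other comparisons, and no test of the set was run. In busulfan against control their median difference on the log2 scale was -0.00, with 5 of 10 above 0 (all genes 47.7%), where the median of all genes was -0.01. It was 0.13 in control-FMT against busulfan with 6 of 10 above 0 (all genes 49.9%), and 0.08 in AOS-FMT against busulfan with 6 of 10 (50.7%). In control-FMT against control it was 0.12 with 7 of 10 above 0 (47.4%), and in AOS-FMT against control 0.07 with 8 of 10 (49%). In AOS-FMT against control-FMT it was -0.06 with 2 of 10 above 0 (50.6%). Several of them share a group, so the signs are not independent.

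Between the members, 45 pairwise correlations of log2 CPM over the 12 libraries were computed, and 1 passed a permutation test with Benjamini-Hochberg adjustment. Nqo1 and Cat went together, at a Pearson r of 0.907 (permutation p = 0.00025, adjusted p = 0.0113) and a Spearman rho of 0.811 (permutation p = 0.00247, adjusted p = 0.0718). Without control replicate 2 and AOS-FMT replicate 2, the libraries farthest from the median of Nqo1, r was 0.75, and on values centred on their group means it was 0.892. Without AOS-FMT replicate 2 alone, 0 of 45 pairs passed, and without control replicate 1 there were 3. Sod2 and Cat had an r of 0.747 (permutation p = 0.00495, adjusted p = 0.111) and Gclc and Gclm one of 0.574 (permutation p = 0.0498, adjusted p = 0.332). Hmox1 and Gclc had an r of 0.642 (permutation p = 0.0241, adjusted p = 0.271).

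**Figure D4:**
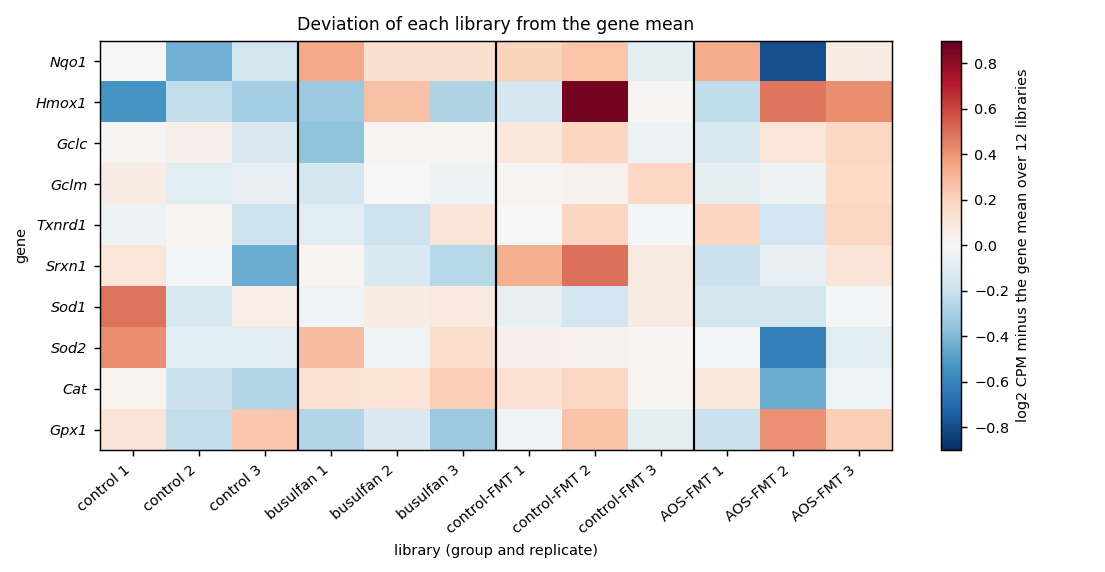
Difference of log2 CPM from each gene's mean over the 12 libraries (colour), genes in rows and libraries in columns, with lines between groups. AOS-FMT replicate 2 is lowest for Nqo1, Sod2 and Cat and highest for Gpx1, and control-FMT replicate 2 is highest for Hmox1, Gclc, Txnrd1 and Srxn1.

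The members were also set against 5 marker scores, in 50 relations chosen after their values were seen, and 6 passed by Pearson r and 0 by Spearman rho after adjustment. Sod2 followed the cardiomyocyte score, at r = 0.889 (permutation p = 0.00012, adjusted p = 0.006) and rho = 0.790 (permutation p = 0.00342, adjusted p = 0.0532). Cat followed it too, at r = 0.846 (permutation p = 0.00092, adjusted p = 0.0153) and rho = 0.727 (permutation p = 0.00961, adjusted p = 0.0801), as did Nqo1, at r = 0.767 (permutation p = 0.00531, adjusted p = 0.0443) and rho = 0.594 (permutation p = 0.0446, adjusted p = 0.268). Without AOS-FMT replicates 2 and 3, farthest from the median of that score, the 3 values of r were 0.734, 0.715 and 0.575, and centred on group means they were 0.874, 0.917 and 0.828. Against the atrial score Nqo1 ran the other way, at r = -0.745 (permutation p = 0.00406, adjusted p = 0.0406) and rho = -0.811 (permutation p = 0.00205, adjusted p = 0.0532). Cat had r = -0.768 with the atrial score (permutation p = 0.00307, adjusted p = 0.0384) and rho = -0.769 (permutation p = 0.00503, adjusted p = 0.0532). Without busulfan replicate 1 and control-FMT replicate 2 these were -0.719 for Nqo1 and -0.803 for Cat, and within groups -0.643 and -0.524. The sixth was Cat with the macrophage score, at r = -0.81 (permutation p = 0.00084, adjusted p = 0.0153) and rho = -0.776 (permutation p = 0.00471, adjusted p = 0.0532), and r = -0.601 without control replicate 3 and AOS-FMT replicate 2 and -0.589 within groups. The count rested on single libraries: 0 passed without AOS-FMT replicate 2, 1 without control replicate 2 or control replicate 3, and 3 without busulfan replicate 2 or any 1 control-FMT library. The cardiomyocyte markers summed to between 115313 and 164699 CPM in control, 149561 and 171261 CPM in busulfan, 133043 and 140739 CPM in control-FMT, and 98277 and 133104 CPM in AOS-FMT. All 12 of them stood lower in AOS-FMT than in busulfan, with 0 called.

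**Figure D5:**
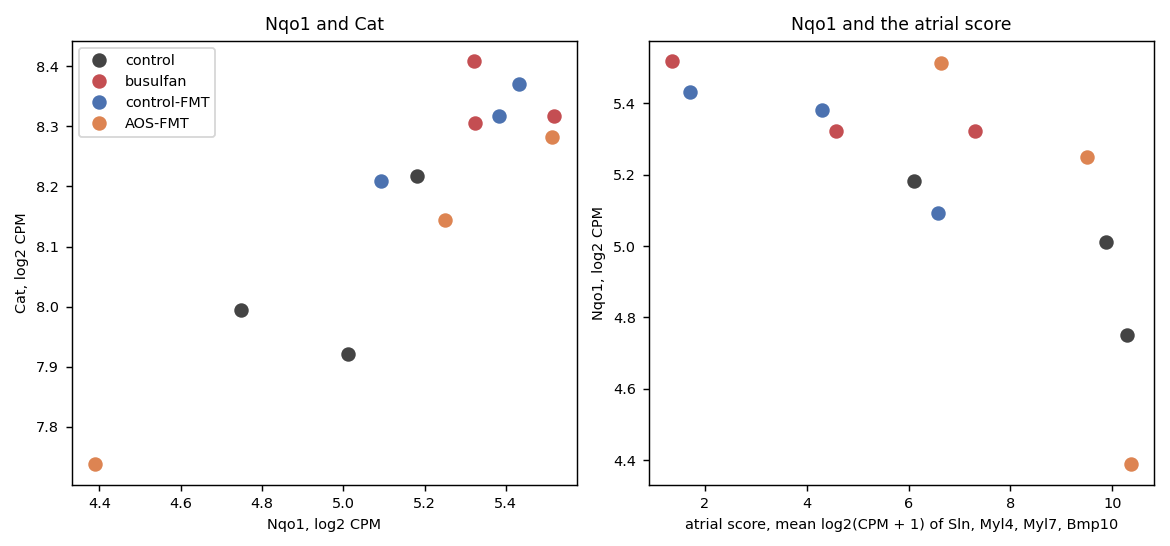
Left, log2 CPM of Cat against that of Nqo1; right, log2 CPM of Nqo1 against the score of 4 atrial genes, averaged as log2(CPM + 1). Each point is 1 of 12 libraries, coloured by group; Nqo1 and Cat go together (r = 0.907), Nqo1 is lower where the atrial score is higher (r = -0.745), and AOS-FMT replicate 2 is the point at the lower end of both.

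Other genes of the pathway behaved alike in that none was called. Of 15 NRF2 regulators and partners, 24 tested of 26 further NRF2 targets, 25 further glutathione and peroxide enzymes and 20 further thioredoxin and peroxiredoxin genes, 0 were called in either direction in any of the 6 comparisons. In the edgeR test over the 4 groups, 2 of 15, 4 of 24, 4 of 25 and 4 of 20 had an unadjusted p under 0.05, beside 10.2% of all genes. In that order of lists, the median log2 differences were 0.05, -0.02, -0.10 and -0.01 in busulfan against control, -0.05, 0.03, -0.00 and 0.01 in control-FMT against busulfan, and -0.10, 0.14, -0.09 and -0.07 in AOS-FMT against busulfan. They were -0.03, 0.03, -0.05 and -0.07 in AOS-FMT against control-FMT, 0.00, -0.00, -0.11 and -0.07 in control-FMT against control, and 0.00, 0.08, -0.10 and -0.18 in AOS-FMT against control. The medians of all genes lay between -0.01 and 0.00. The median farthest from 0 was that of the thioredoxin and peroxiredoxin genes in AOS-FMT against control, with 15 of 20 below 0, and of the glutathione and peroxide enzymes 20 of 25 lay below 0 in control-FMT against control.

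Among the regulators, Nfe2l2 itself had 80.5 ± 3.49 CPM in control, 71.8 ± 5.49 CPM in busulfan, between 78.9 and 81.9 CPM in control-FMT and 84.5 ± 2.61 CPM in AOS-FMT (SD, n = 3 each). Its busulfan libraries lay below all 9 others, and its p over the 4 groups was 0.101 (edgeR adjusted p = 0.568). Of all genes, 6.38% were apart and lower in busulfan against control. In control-FMT and AOS-FMT against busulfan, 5.41% and 10.3% were apart and higher. The share with all of these at once was not counted. Of the 3 small MAF partners, Maff and Mafk had their highest mean in AOS-FMT and Mafg did not, at -0.24 ± 0.13 against busulfan (edgeR adjusted p = 0.408). Maff had 13.8 ± 2.36 CPM in AOS-FMT and 8.58 ± 2.27 CPM in busulfan (edgeR adjusted p = 0.289), and Mafk had 50.0 ± 2.46 and 41.4 ± 4.17 CPM.

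Of the further targets, Ptgr1, a reductase of lipid-derived alkenals, had 4.36 ± 0.774 CPM in control, 2.91 ± 0.337 CPM in busulfan, 4.30 ± 0.332 CPM in control-FMT and 4.97 ± 0.190 CPM in AOS-FMT, and no busulfan library reached any other group. It stood at -0.58 ± 0.20 in busulfan against control (edgeR adjusted p = 0.341) and 0.77 ± 0.20 in AOS-FMT against busulfan (adjusted p = 0.259). G6pdx, which supplies NADPH, had 18.2 ± 3.76, 14.1 ± 1.51, 18.2 ± 1.72 and 20.4 ± 2.57 CPM in the same order, and Ugdh, which makes UDP-glucuronate, had 19.5 ± 3.93, 14.1 ± 2.78, 18.2 ± 0.824 and 21.1 ± 2.45 CPM. These 3 were named for their small p, and of the 24 targets tested 11 lay above and 13 below 0 in busulfan against control. Beside the separation of Ptgr1, 6.38% of all genes were apart and lower in busulfan against control. Apart and higher were 5.41% in control-FMT against busulfan and 10.3% in AOS-FMT against busulfan. Among the members, 4 had their lowest mean in busulfan (Gclc, Gclm, Srxn1 and Gpx1), 4 in control (Nqo1, Hmox1, Txnrd1 and Cat) and 2 in AOS-FMT.

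In the glutathione group, Glo1, glyoxalase 1, had the smallest p over the 4 groups, 0.00854 (edgeR adjusted p = 0.353). It had 294 ± 26.2 CPM in control, 209 ± 38.7 CPM in busulfan, 246 ± 24.3 CPM in control-FMT and 147 ± 55.2 CPM in AOS-FMT, a difference of -0.99 ± 0.24 between AOS-FMT and control (edgeR adjusted p = 0.183). Gpx8, a peroxidase of the endoplasmic reticulum, was at 37.5 ± 5.56 CPM in the controls against 26.7 ± 4.38 CPM under busulfan, with no overlap. Of all genes 6.38% were apart and lower in that comparison. Oplah, 5-oxoprolinase, had 68.2 ± 13.0 CPM in AOS-FMT and 87.9 ± 1.97 CPM in busulfan. In the thioredoxin group Sesn2, a stress-induced sestrin that p53 also regulates, had 3.76 ± 0.579 CPM in control and 6.06 ± 1.22, 6.61 ± 0.720 and 7.33 ± 2.43 CPM in busulfan, control-FMT and AOS-FMT, with every library of these 3 groups above every control library. Its difference from control was 0.69 ± 0.25 in busulfan (edgeR adjusted p = 0.351), 0.81 ± 0.25 in control-FMT (adjusted p = 0.410) and 0.97 ± 0.25 in AOS-FMT (adjusted p = 0.214), and these share the control libraries. Of all genes 7.74%, 7.16% and 6.63% were apart and higher in these 3 comparisons, and the share in all 3 at once was not counted. The genes named from these lists had the smallest p over the 4 groups in their list. Txn1, thioredoxin, had 58.1 ± 17.9 CPM in control and 38.0 ± 1.16 CPM in AOS-FMT, and Nxn, nucleoredoxin, was at 30.8 ± 3.57 CPM in the controls against 23.1 ± 1.15 CPM under busulfan.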

How the data were processed

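RNA-seq of mouse hearts, 12 libraries in 4 groups of 3, was taken from 1 deposited table. Per the file headers, it holds estimated counts, TPM and FPKM per gene and library as the authors made them, and the authors' group means, which were not used. FPKM values the authors deposited were not used in any result. Between 94.7% and 95.3% of the estimated counts per library were whole within 1e-09. Per the submitters' processing notes, Bowtie 0.12.2 and mm10 were used; no source used here names the counting tool, annotation, strandedness or filters. How multi-mapped reads and isoforms were shared out can move a gene's estimated count and its TPM apart.

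Estimated counts were rounded. filterByExpr left 13489 of 17536 genes, all with a gene symbol. Counts were scaled by TMM (factors 0.908 to 1.08) and fitted in 1 model of all 12 libraries with edgeR 4.0.16 (robust quasi-likelihood, R 4.3.3), group being the only term; 6 contrasts and 1 test over the 4 groups were read from it, adjusted by Benjamini-Hochberg over all genes. DESeq2 1.42.0, limma-voom (limma 3.58.1), other scalings and filters, marker covariates, a replicate block and leaving out each library were alternatives. The procedure was tested on simulated data. Log2 CPM used a prior count of 2, and TPM a pseudocount of 1 where tested. Correlations used 100000 permutations, which shuffled all 12 libraries without regard to group. Replicates of a group differed beyond sampling noise (chi-square per degree of freedom 8.88 to 71.5). Precision is limited by 3 libraries a group, at 129 to 10637 estimated counts of a member per library.

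The members and lists were chosen with earlier results of these data known. Named are all members, the 3 genes of each pathway list with the smallest p over the 4 groups, and the 3 genes most correlated with the 2 members of smallest p. Positions and promoters are from RefSeq for GRCm38.p6, the assembly mm10 denotes.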

Additional observations from a re-analysis of the deposited data

How the results depend on the processing

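No alternative called any of the 10 members in any comparison: with 22 alternatives the smallest adjusted p was 0.122, without AOS-FMT replicate 1. Of 1320 alternative values of the 60 member differences, 1245 kept their sign and 75, over 29 differences none of which was called, did not. The number of genes called depended on the fit. In the order busulfan against control, control-FMT against busulfan, AOS-FMT against busulfan, AOS-FMT against control-FMT, control-FMT against control, AOS-FMT against control and any difference among the 4 groups, edgeR called 8, 0, 6, 4, 0, 11 and 14 genes. DESeq2 called 123, 2, 131, 32, 92, 122 and 289. limma-voom called 5, 0, 4, 4, 0, 15 and 11. Without scaling beyond library size the counts were 0, 0, 6, 2, 2, 14 and 14. Without the filter on low counts they were 8, 0, 9, 5, 3, 14 and 14. With a replicate block they were 10, 0, 14, 6, 7, 25 and 30. With the atrial covariate they were 1, 0, 0, 0, 4, 25 and 12. With the liver covariate they were 0, 0, 1, 0, 0, 0 and 0. On log2(TPM + 1) with limma, added after seeing the data, they were 0, 0, 5, 2, 0, 16 and 4. With RLE factors they were 7, 0, 6, 3, 0, 11 and 11. With only the groups compared they were 0, 2, 0, 0, 0 and 6 in the 6 comparisons. Leaving out 1 library at a time gave 0 to 14, 0 to 1, 0 to 20, 0 to 4, 0 to 7, 1 to 17, 2 to 32 genes in the same order. 

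Signs that turned, all of values that were not called, were as follows (log2 fold changes). With the atrial covariate they were Gclc 0.017, Gclm 0.012, Txnrd1 -0.026, Sod2 -0.19 in busulfan against control, Nqo1 0.076 in AOS-FMT against busulfan, Nqo1 0.18, Sod2 0.0046 in AOS-FMT against control-FMT, Nqo1 -0.063 in control-FMT against control. With the liver covariate they were Txnrd1 -0.0072 in busulfan against control, Gclm -0.053, Srxn1 -0.034 in AOS-FMT against busulfan, Txnrd1 -0.047 in AOS-FMT against control-FMT, Gclc -0.10, Gclm -0.14, Srxn1 -0.10, Cat -0.0024 in AOS-FMT against control. Without scaling they were Txnrd1 -0.014 in busulfan against control, Nqo1 0.00061, Cat 0.036 in control-FMT against busulfan, Hmox1 0.0068, Gclc 0.023 in AOS-FMT against control-FMT, Gpx1 0.047 in control-FMT against control. On log2(TPM + 1) they were Gclc 0.0046, Gclm 0.12, Srxn1 0.071 in busulfan against control, Nqo1 0.010, Sod1 0.025, Cat 0.046 in control-FMT against busulfan, Hmox1 0.0068, Gclm 0.0069 in AOS-FMT against control-FMT, Sod2 0.14, Gpx1 0.17 in control-FMT against control. With limma-voom they were Gpx1 0.0012 in control-FMT against control. Leaving out 1 library at a time gave Gclc -0.14 to 0.045, Gclm -0.069 to 0.0087, Sod1 -0.25 to 0.065, Sod2 -0.060 to 0.22, Srxn1 -0.18 to 0.080, Txnrd1 -0.075 to 0.083 in busulfan against control, Nqo1 -0.15 to 0.017 in control-FMT against busulfan, Gclm -0.0053 to 0.13, Nqo1 -0.52 to 0.0030, Srxn1 -0.015 to 0.15 in AOS-FMT against busulfan, Gclc -0.10 to 0.059, Gpx1 -0.034 to 0.26, Hmox1 -0.24 to 0.33, Nqo1 -0.44 to 0.077, Sod1 -0.12 to 0.0062, Txnrd1 -0.048 to 0.13 in AOS-FMT against control-FMT, Gpx1 -0.13 to 0.090, Sod2 -0.16 to 0.12 in control-FMT against control, Cat -0.10 to 0.16, Gclm -0.037 to 0.10, Gpx1 -0.046 to 0.25, Nqo1 -0.11 to 0.39, Srxn1 -0.10 to 0.17 in AOS-FMT against control. The cause of these changes was not tested. The median of all genes lay 0.136 above 0 in AOS-FMT against busulfan without scaling, and 0.138 and 0.158 above 0 on log2(TPM + 1) in control-FMT and AOS-FMT against control, and values under these settings are to be read against that shift. Of the 45 member pairs, 1 passed by Pearson r, 0 by Spearman rho, 5 on values centred on group means, and 0 to 3 without 1 library. Of the 50 relations to marker scores, 6, 0, 4 and 0 to 8 passed in the same order. The permutations ignored the groups, so the counts on centred values can be too high. Replicate numbers are shared between groups but are not said to mark a shared animal or batch. Deviations from group means correlated between -0.161 and 0.454 in the 18 pairs of libraries with the same number, 10 of them over 0.1. The median was 0.117 in these pairs and -0.0429 in pairs with different numbers. Of 12 libraries, 5 correlated best with their own number. These values do not settle whether libraries with the same number were linked, and the main fit did not pair them. The replicate block called 0 members. With 3 libraries a group, a median SE of 0.163 limits what could be called.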
